A study of Mus musculus with 26 samples.

Results

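The genes studied here encode the antimicrobial proteins that Paneth cells and neighbouring cells secrete into the crypts of the small intestine (SI), namely the α-defensins, the Reg lectins and a set of enzymes, other lectins and host-defence proteins. They were chosen by symbol, as every Defa gene with a number, Reg3a, Reg3b, Reg3d, Reg3g and Reg4, and Lyz1, Ang4, Mmp7, Itln1, Retnlb, Pla2g2a, Mptx2, Nupr1l, Lcn2 and Pglyrp1, which gave 43 of the 55487 genes in the table. Of these, 28 were Defa genes and 15 were other genes. At least 1 count was present for 29 of the 43 genes, and the 14 without any count were all Defa genes. Values are given for the 19 genes that reached 10 CPM (counts scaled to the library total, the usual unit of RNA-seq levels) as the mean of a group.

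Paneth cells sit at the base of the crypts of Lieberkühn, next to the stem cells, and release granules of lysozyme, α-defensins and other bactericidal proteins into the crypt lumen. Mouse α-defensins, also called cryptdins, are made as precursors that the protease matrilysin (Mmp7) cuts into their active form, and their genes lie in a large cluster of near-identical copies. Reg3b and Reg3g are C-type lectins made by enterocytes as well as Paneth cells, and are known for induction by interleukin 22 and by contact with bacteria.

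Pieces of proximal SI were taken for RNA sequencing (RNA-seq) from mice with a floxed gene and the Villin-creERT2 transgene (labelled tg, here knockout) and from mice with the same floxed gene but without the transgene (labelled wt, here control). The villin promoter directs the recombinase to intestinal epithelial cells (IECs), where tamoxifen activates it, and both genotypes were injected with tamoxifen on 5 consecutive days. Mice of 8 to 12 weeks of age were killed 3 or 7 days after the last injection, with 7 mice per genotype at 3 days and 6 per genotype at 7 days, and 1 library was made per mouse. Sequencing was from the 3′ end of poly(A) RNA of whole tissue, which holds epithelium, lamina propria and muscle. In such tissue, fewer cells of a type and less RNA per cell cannot be told apart.

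Library totals lay between 3720168 and 6338016 counts, and the CPM of a gene refers to the total of its library. Differences were tested with edgeR's quasi-likelihood test over all genes of a comparison, and called at a Benjamini-Hochberg adjusted p under 0.05. Libraries with over 10000 CPM of summed pancreatic acinar transcripts were knockout replicate 2 and control replicates 2 and 3 at 3 days and knockout replicate 4 at 7 days, and the other libraries held at most 5753 CPM. Libraries with over 10000 CPM of stomach transcripts were knockout replicate 1 and control replicates 5 and 7 at 3 days and control replicate 2 at 7 days, and the others held at most 395 CPM. All comparisons were also fitted without these libraries, and control replicate 3 of day 7 had the highest level of many Paneth cell genes in its group.

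At 7 days, 25 of the 43 genes could be tested, and knockout mice had 2 of them higher and 9 lower. Among all 20259 genes tested at that day, 19.7% were called higher and 18.8% lower. The genes called higher were Reg4 and Lcn2, and those called lower were Reg3a, Reg3b, Reg3g, Pglyrp1, Defa17, Defa26, Defa29, Defa39 and Defa40. The median log2 fold change of the 25 genes was −0.73, against −0.02 over all genes tested. At 3 days, 24 genes were tested and 0 were called, where 1.11% of all 20760 genes were called higher and 0.323% lower. In edgeR 1 of the 24 genes, Lcn2, had an unadjusted p under 0.05 at 3 days (log2 fold change 0.83, SE 0.29, adjusted p = 0.187), and DESeq2 called 0 genes, with 2 under that limit. The median at 3 days was 0.33, against −0.03 over all genes.

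**Figure D1:**
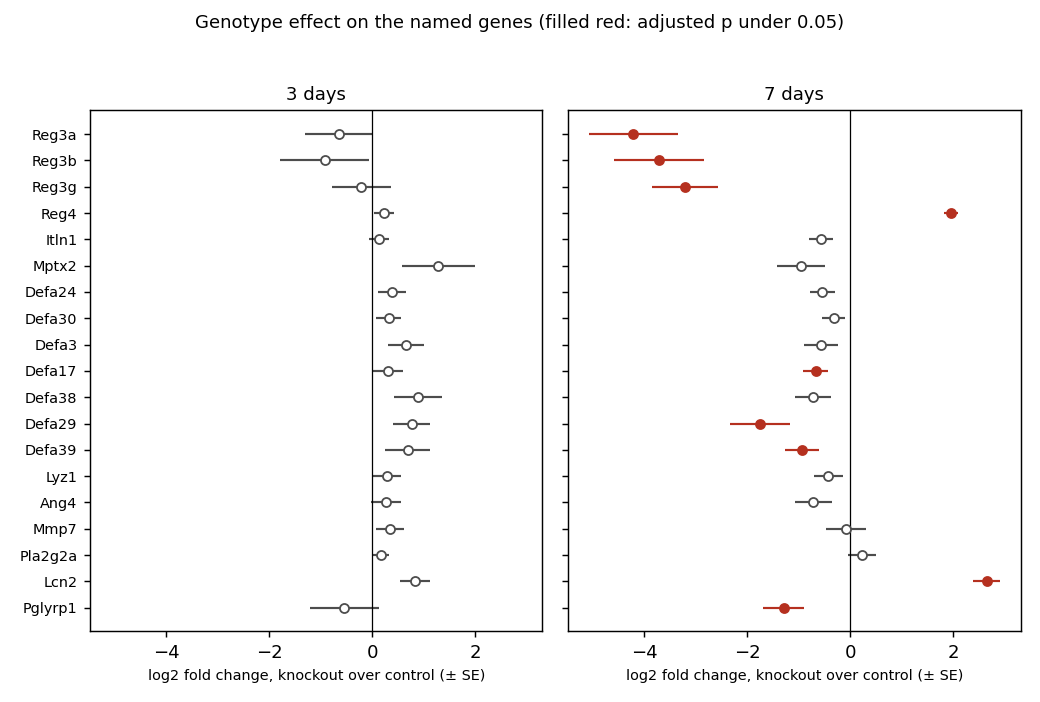
Log2 fold changes of knockout over control mice (x axis) for the 19 genes with at least 10 CPM in a group, at 3 days (left) and 7 days (right), with 1 SE as error bars from edgeR's quasi-likelihood fit, and filled red points for an adjusted p under 0.05. At 7 days the 3 Reg3 genes lie below −3 and Reg4 and Lcn2 near or above 2, while the Defa genes lie between −1.76 and −0.33.

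The 3 abundant Reg3 lectins had the largest decreases of the 25 genes at 7 days. Their summed level was between 14.4 and 295 CPM (median 26) in knockout mice and between 535 and 3439 CPM (median 982) in control mice, so that the highest knockout library was below the lowest control library. The ratio of the group means was 12.5 in favour of control mice, with 19.6 when knockout replicate 4, a library with pancreatic transcripts, was left out and 8.43 without control replicate 3. The 4 Reg3 genes lie within 98.2 kb on chromosome 6 of GRCm38 (78370657 to 78468872), and the annotation lists all 4 as protein-coding.

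Reg3a (ENSMUSG00000079516, chromosome 6, 78380709 to 78383827) was at 0.350 CPM in the lowest, 1.29 in the median and 65.0 in the highest of the 6 knockout libraries at 7 days, and at 81.6, 219 and 372 CPM in the 6 control libraries. The groups did not overlap. The log2 fold change was −4.21 (SE 0.86, adjusted p = 0.000699, edgeR). The knockout library at 65.0 CPM was replicate 4, which holds pancreatic transcripts, and the next highest had 3.13 CPM. Without it, the log2 fold change was −7.26 (adjusted p = 2.49e-09, edgeR).

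Reg3b (ENSMUSG00000071356, chromosome 6, 78370657 to 78373466) had a lowest, median and highest level of 6.45, 12.6 and 207 CPM in knockout mice and of 108, 566 and 2522 CPM in control mice at 7 days. In 4 of 6 knockout mice it was below every control mouse, and the exceptions were replicates 4 (207 CPM) and 6 (140 CPM). Reg3g (ENSMUSG00000030017, chromosome 6, 78466269 to 78468872) had levels of 7.01, 13.9 and 100 CPM against 55.1, 203 and 644 CPM, and 5 of 6 knockout mice were below every control mouse. Both were called lower, with log2 fold changes of −3.71 (SE 0.88, adjusted p = 0.00233, edgeR) and −3.20 (SE 0.64, adjusted p = 0.000559). Without control replicate 3, which had the highest level of both, the values were −2.88 and −2.62 on the log2 scale and both were still called. Leaving out the highest knockout mouse moved them the other way, to −4.53 for Reg3b without replicate 4, the library with pancreatic transcripts (adjusted p = 0.000559, edgeR), and to −4.28 for Reg3g without replicate 6.

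At 3 days the Reg3 genes varied widely within each genotype. Reg3b ranged from 3.78 to 357 CPM (median 16.9) in 7 knockout mice and from 55.3 to 366 CPM (median 230) in 7 control mice, and 5 of 7 knockout mice were below every control mouse. The log2 fold change of −0.92 had an SE of 0.86 and was not called (adjusted p = 0.703, edgeR). The 2 knockout mice within the control range were replicate 2 (357 CPM), a library with pancreatic transcripts, and replicate 3 (177 CPM). Without the libraries with pancreatic or stomach transcripts the log2 fold change was −2.29 (adjusted p = 0.373, edgeR), also not called. Reg3a (log2 fold change −0.65, adjusted p = 0.734) and Reg3g (−0.22, adjusted p = 0.913) were not called at 3 days either.

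The test of the difference between the days asks whether the genotype effect itself changed. In it, 24 of the 43 genes were tested, 2 with a higher and 4 with a lower effect at 7 days, against 8.64% and 9.74% of all 19604 genes. Reg3a had an effect lower by 3.56 on the log2 scale (log2 difference −3.56, SE 1.17, adjusted p = 0.0324, edgeR) and Reg3g a log2 difference of −2.97 (SE 0.94, adjusted p = 0.0262). For Reg3b the log2 difference of −2.77 was not called (SE 1.33, adjusted p = 0.161). The call for Reg3a was lost when any 1 of 8 mice was left out (adjusted p up to 0.0755), most of all without knockout replicate 2 of day 3 (−3.03). That for Reg3g was lost without knockout replicate 2 or 3 of day 3 or control replicate 3 of day 7 (adjusted p up to 0.0735). Without the libraries with pancreatic transcripts, Reg3a had a log2 difference of −5.97 (adjusted p = 0.000447, edgeR) and Reg3g one of −2.71 that was not called (adjusted p = 0.107).

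**Figure D2:**
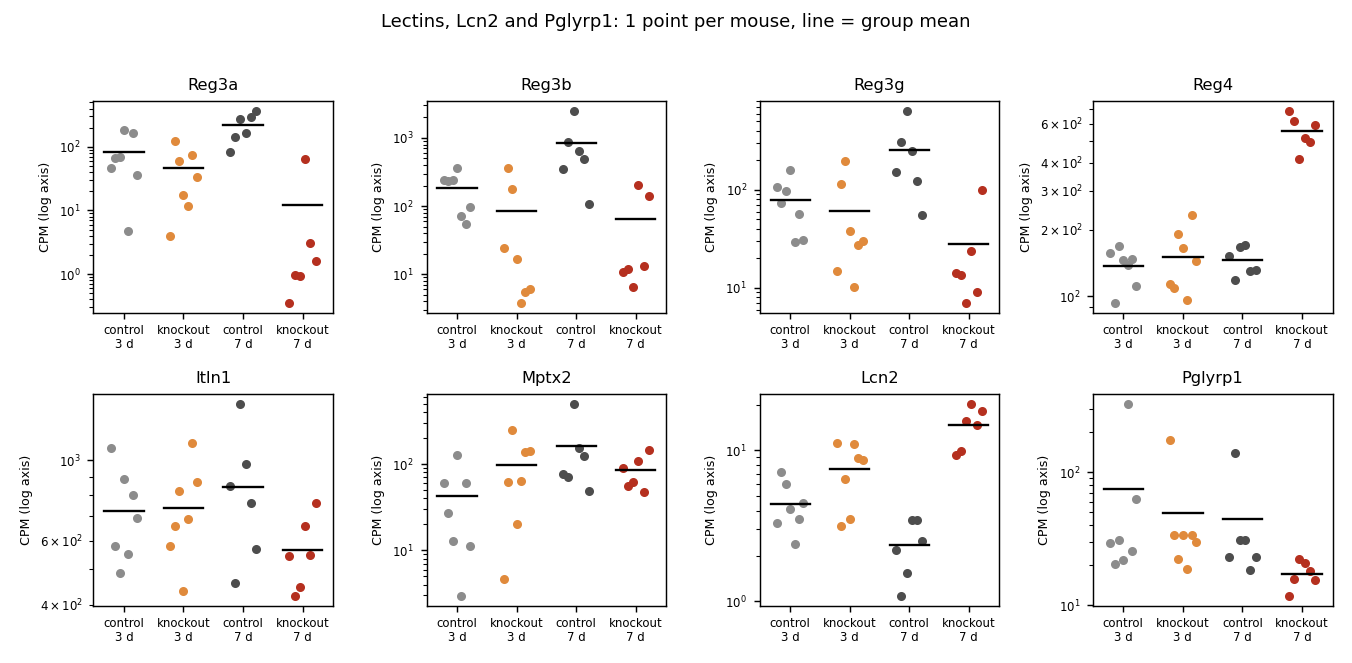
Levels in CPM (y axis, log scale) of 6 lectins and of Lcn2 and Pglyrp1, with 1 point per mouse and a line at the group mean, for control and knockout mice at 3 and 7 days (x axis). Reg3a, Reg4 and Lcn2 show no overlap between the genotypes at 7 days, and in Pglyrp1 a few high points are the libraries with stomach transcripts.

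The promoters of the Reg genes and defensins, 250 bases before to 50 after the start site of RefSeq, were available for 29 of the 43 genes (GRCm38.p6). Shown here are those of Reg3b and Reg3g, which were called lower at 7 days, of Reg4, which was called higher, and of Defa30, a highly counted defensin. Capitals mark matches to a STAT motif (TTCNNNGAA) or a TCF motif (CTTTGAA or CTTTGAT) on either strand.
Reg3b (chr6:78370635-78370934, plus strand): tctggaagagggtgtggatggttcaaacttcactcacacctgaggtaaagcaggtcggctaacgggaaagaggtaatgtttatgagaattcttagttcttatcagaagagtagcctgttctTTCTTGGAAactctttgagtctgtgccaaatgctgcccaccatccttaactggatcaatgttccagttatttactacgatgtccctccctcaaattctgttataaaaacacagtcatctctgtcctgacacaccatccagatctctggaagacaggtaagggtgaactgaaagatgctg
Reg3g (chr6:78468825-78469124, minus strand): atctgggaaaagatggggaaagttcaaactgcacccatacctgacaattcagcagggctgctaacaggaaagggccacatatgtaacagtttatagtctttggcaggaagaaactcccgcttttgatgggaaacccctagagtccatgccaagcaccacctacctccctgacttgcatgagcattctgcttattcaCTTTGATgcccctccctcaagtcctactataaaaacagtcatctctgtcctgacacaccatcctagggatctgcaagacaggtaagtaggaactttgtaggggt
Reg4 (chr3:98221906-98222205, plus strand): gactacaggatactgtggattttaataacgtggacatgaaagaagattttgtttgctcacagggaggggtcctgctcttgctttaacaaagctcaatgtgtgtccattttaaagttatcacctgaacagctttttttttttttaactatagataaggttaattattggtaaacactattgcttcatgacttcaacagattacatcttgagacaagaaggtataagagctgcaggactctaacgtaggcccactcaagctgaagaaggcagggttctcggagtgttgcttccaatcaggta
Defa30 (chr8:21134400-21134699, plus strand): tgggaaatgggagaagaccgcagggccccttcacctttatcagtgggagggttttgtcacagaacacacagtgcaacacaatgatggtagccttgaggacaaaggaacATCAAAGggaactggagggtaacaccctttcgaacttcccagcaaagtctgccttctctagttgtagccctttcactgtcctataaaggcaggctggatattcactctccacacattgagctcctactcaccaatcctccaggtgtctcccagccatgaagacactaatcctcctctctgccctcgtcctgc
The capitals in Reg3b are its match to the STAT motif, 129 bases before the start site, and those in Reg3g and Defa30 are matches to the TCF motif, 54 and 142 bases before it. In GENCODE, Reg3b begins further upstream than in RefSeq, at 78370657, so that its match lies within the gene by that annotation. Both strands were searched. The letters of the STAT and TCF motifs can overlap, and no gene here held both. The STAT motif was in 3 of the 29 genes, Reg3b, Reg3d and Ang4, and in 8.3% of all 32851 promoters. The TCF motif was in 13 of 16 Defa genes and in 8.7% of all promoters. Of the Defa genes that reached 10 CPM in a group, only Defa30, with the motif, and Defa38, without it, had a promoter here. The other Defa promoters belong to genes with few or no counts, so the 13 of 16 does not describe the defensins counted most. The Defa genes without it were Defa38, Defa42 and Defa43, which belong to 1 sequence family, and promoters of duplicated genes are not independent of each other. Another motif, TGATGNAA, which C/EBP and ATF proteins can bind, was in 0 of the 29 genes and in 4.0% of all promoters. A match is a run of letters and not a measured binding site.

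Reg4, a related lectin of enteroendocrine and secretory cells that lies apart from the Reg3 cluster (ENSMUSG00000027876, chromosome 3, 98222156 to 98236748), moved the other way. At 7 days its lowest, median and highest level was 417, 557 and 688 CPM in knockout mice and 118, 142 and 171 CPM in control mice. The groups were far apart, with knockout mice 3.82-fold higher by the means. The log2 fold change was 1.96 (SE 0.14, adjusted p = 2.87e-09, edgeR), and it stayed between 1.87 and 2.03 when any 1 mouse was left out. At 3 days Reg4 was between 96.4 and 233 CPM in knockout mice and between 93.4 and 168 CPM in control mice, and was not called (log2 fold change 0.23, SE 0.19, adjusted p = 0.661, edgeR). The difference of the effect between the days was 1.74 on the log2 scale (SE 0.26, adjusted p = 1.17e-05), the smallest p of the 24 genes. It was called in all alternatives tried, those without the libraries with pancreatic or stomach transcripts included.

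Lcn2 encodes lipocalin 2, which binds bacterial siderophores and is made by neutrophils and stressed epithelium. It was at 9.29, 15.3 and 20.5 CPM in the lowest, median and highest of the knockout libraries at 7 days and at 1.09, 2.36 and 3.47 CPM in the control libraries, with no overlap. At 3 days the values were 3.14, 8.62 and 11.1 CPM against 2.42, 4.08 and 7.25 CPM, which do overlap. Its effect was 1.83 larger on the log2 scale at 7 days (SE 0.41, adjusted p = 0.00204, edgeR), and 1.23 without the libraries with pancreatic or stomach transcripts, where it was not called (adjusted p = 0.0577). Of 13 neutrophil markers, 7 were tested at 7 days and 3 were higher, 0 lower, where 19.7% of all genes were called higher and 18.8% lower. Their summed level was between 15.6 and 26.1 CPM in knockout mice and between 9.24 and 17.6 CPM in control mice, and Elane, Mpo and Stfa2l1 had at most 3 counts in any library. The part of neutrophils in the level of Lcn2 was not tested.

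Pglyrp1, a peptidoglycan-binding protein of granulocytes and epithelium, was called lower at 7 days. It was at 11.7, 16.9 and 22.2 CPM in knockout mice and at 18.5, 27.0 and 140.5 CPM in control mice (log2 fold change −1.30, SE 0.40, adjusted p = 0.0146, edgeR). The library at 140.5 CPM was control replicate 2, which holds stomach transcripts, and without it the log2 fold change was −0.55 (adjusted p = 0.0132). With all 26 libraries in 1 fit Pglyrp1 was not called (−1.29, adjusted p = 0.14, edgeR). At 3 days the 3 highest levels, 328, 175 and 62.9 CPM, were likewise the 3 libraries with stomach transcripts, and the other 11 lay between 18.9 and 34 CPM. The log2 fold change at 3 days was −0.54 (adjusted p = 0.789, edgeR) and 0.32 without these libraries (adjusted p = 0.426). The part of stomach tissue in the level of Pglyrp1 was not tested.

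**Figure D3:**
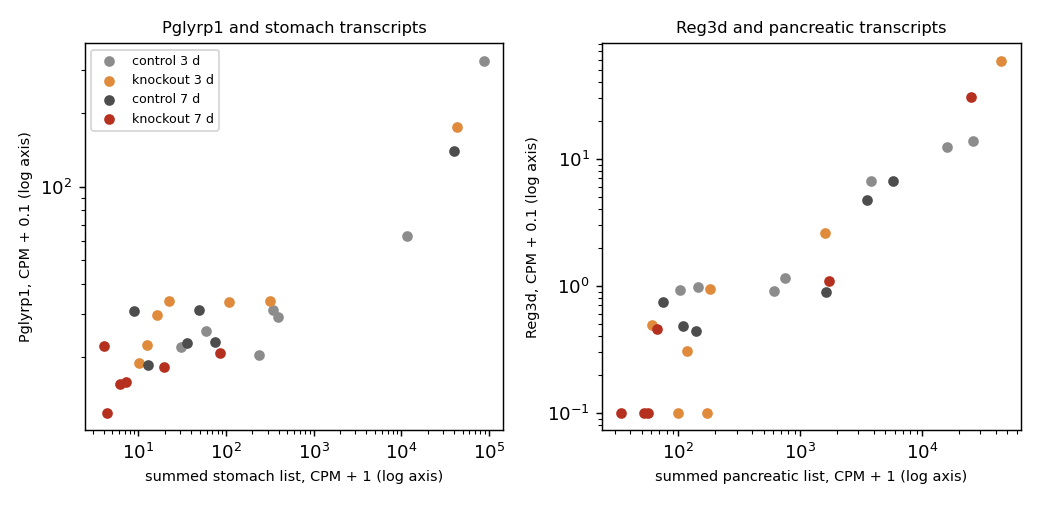
Left, Pglyrp1 against the summed stomach list, and right, Reg3d against the summed pancreatic list, in CPM on log axes with 1 point for each of 26 libraries, coloured by group. The 4 libraries with over 10000 CPM of stomach transcripts have the 4 highest levels of Pglyrp1, from 62.9 to 328 CPM, and the 4 with over 10000 CPM of pancreatic transcripts have the 4 highest of Reg3d, from 12.3 to 58.8 CPM.

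The α-defensins are 28 genes over 709.9 kb of chromosome 8 (21025545 to 21735471), of which 14 had a count and 7 reached 10 CPM in a group. Their counts cannot be read gene by gene without regard to sequence, since 3′ reads of near-identical copies may be given to the wrong one. Of the 35-base windows in the last 300 bases of the transcript, between 40.2% and 90.6% (median 65.4%) were shared with another gene in the 7 counted most. Among the 14 Defa genes with no count the median was 100%, and 10 of the 14 were at 100%. Among the 15 other genes, 12 shared none of these windows, and Lyz1 shared 31.6% and Ang4 25.6%. A Defa gene listed at 0 is therefore not shown to be silent, most of all where all its windows are shared. Defa41 and Defa27, without a count, shared 60.5% and 75.2%, whereas Defa34 shared 100% and had 631 counts. Windows of 75 bases were shared less in the 7 counted most, by 0.0% to 87.6% (median 13.3%). Of these 7, Defa3 and Defa17 were both at 87.6%, and Defa38 came next at 30.1%.

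**Figure D4:**
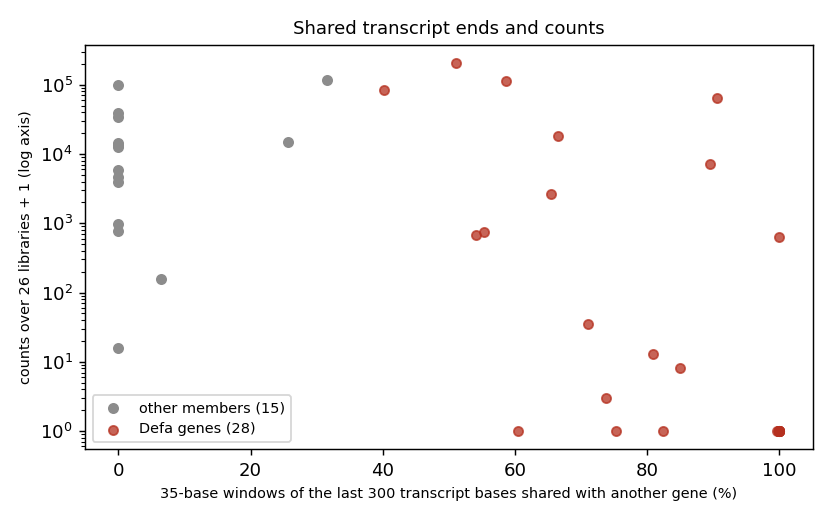
Share of 35-base windows in the last 300 transcript bases that occur in another gene (x axis, percent) against the counts of the gene over all 26 libraries plus 1 (y axis, log scale), for 28 Defa genes (red) and 15 other genes (grey). Most Defa genes with no count lie at 100%, whereas 12 of the 15 other genes lie at 0%.

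By coding sequence the 7 counted Defa genes fell into a pair of families. Defa24, Defa30, Defa3 and Defa17 were between 95.7% and 100% identical, Defa38, Defa29 and Defa39 between 96.6% and 97.4%, and genes of different families between 63.6% and 65.9%. The last 90 coding bases show how little there is to tell members apart. In the first family capitals mark bases that differ from Defa24.
Defa24: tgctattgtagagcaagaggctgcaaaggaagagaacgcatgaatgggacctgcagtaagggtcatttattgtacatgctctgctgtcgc
Defa30: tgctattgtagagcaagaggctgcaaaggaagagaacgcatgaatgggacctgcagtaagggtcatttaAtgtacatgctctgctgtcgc
Defa3: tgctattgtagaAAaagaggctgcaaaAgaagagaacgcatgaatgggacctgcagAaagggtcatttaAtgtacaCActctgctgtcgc
Defa17: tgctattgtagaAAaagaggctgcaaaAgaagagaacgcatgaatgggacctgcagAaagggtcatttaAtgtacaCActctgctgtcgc
In the second family capitals mark bases that differ from Defa38.
Defa38: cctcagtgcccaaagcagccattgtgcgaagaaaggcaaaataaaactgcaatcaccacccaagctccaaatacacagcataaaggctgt
Defa29: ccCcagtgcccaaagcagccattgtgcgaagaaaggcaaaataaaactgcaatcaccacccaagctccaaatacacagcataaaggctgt
Defa39: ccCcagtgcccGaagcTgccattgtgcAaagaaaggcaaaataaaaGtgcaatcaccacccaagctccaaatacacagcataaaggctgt
Over these bases Defa30 differs from Defa24 at 1 position, and Defa3 and Defa17 differ from it at the same 7 and have identical coding sequences throughout. Defa29 differs from Defa38 at 1 position and Defa39 at 5. Values of Defa3 and Defa17 are therefore best read as a sum, which at 7 days was 376 ± 95.8 CPM in knockout and 599 ± 268 CPM in control mice (SD, n = 6 each).

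Summed over all 28 genes, which is not touched by reads placed on the wrong copy within the set though it lacks reads dropped for a low mapping quality, the defensins were between 1697 and 3817 CPM (median 2690) in knockout mice and between 2282 and 7662 CPM (median 3912) in control mice at 7 days. At 3 days they were between 1911 and 7356 CPM (median 4901) and between 2026 and 4819 CPM (median 2945). All 6 knockout mice at 7 days were below the median of the control mice, yet the groups overlap at both days. The log2 ratio of the means was −0.61 at 7 days and 0.32 at 3 days. The value at 7 days lay between −0.73 and −0.35 with each mouse left out, and was least without control replicate 3, the mouse at 7662 CPM. As a share of a library the sums ranged from 0.170% to 0.766%.

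At 7 days 11 Defa genes were tested, 0 were called higher and 5 lower, and the median log2 fold change was −0.94. Of all genes tested at that day 19.7% were called higher and 18.8% lower. At 3 days 10 Defa genes were tested and 0 called, and the median was 0.60, where 1.11% of all genes were called higher and 0.323% lower. All 11 values at 7 days were below 0 and all 10 at 3 days above 0, but genes that share reads do not give independent values. Over all genes tested, 10373 of 20259 were below 0 at 7 days and 11134 of 20760 at 3 days.

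At 3 days the largest value of a defensin was that of Defa38, at 39.7, 85.2 and 291 CPM in the lowest, median and highest of the knockout libraries and at 37.0, 47.5 and 189 CPM in the control libraries (log2 fold change 0.88, SE 0.47, adjusted p = 0.438, edgeR). Defa39 was at 179, 624 and 1374 CPM against 226, 306 and 932 CPM (log2 fold change 0.68, adjusted p = 0.53). The genotypes overlapped in both.

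In the family of Defa24, the log2 fold changes at 7 days were −0.54 for Defa24 itself (SE 0.24, adjusted p = 0.0793, edgeR), −0.33 for Defa30, −0.57 for Defa3 and −0.67 for Defa17, of which only Defa17 was called. Defa24, the most counted defensin, was at 715, 1135 and 1601 CPM in the lowest, median and highest of the knockout libraries and at 1016, 1616 and 2962 CPM in the control libraries. All 6 knockout values were below the control median, although 5 of them were within the control range. Defa17 was at 219, 340 and 453 CPM against 299, 458 and 912 CPM (SE 0.24, adjusted p = 0.0339, edgeR). Defa30 was at 385, 657 and 977 CPM against 468, 915 and 1068 CPM, and Defa3 at 28, 43.1 and 62.1 CPM against 35.2, 47.7 and 164 CPM.

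The family of Defa38 had lower values. Defa39 was at 261, 424 and 600 CPM in knockout mice and at 377, 637 and 1919 CPM in control mice (log2 fold change −0.94, SE 0.33, adjusted p = 0.0314, edgeR). Defa29 was at 5.43, 8.94 and 18.8 CPM against 8.20, 18.7 and 133 CPM (log2 fold change −1.76, SE 0.58, adjusted p = 0.0229). Defa38 was at 67.7, 108 and 174 CPM against 66.0, 140 and 421 CPM and was not called (log2 fold change −0.73, adjusted p = 0.11). Summed, this family had a log2 ratio of means of −0.91 and the family of Defa24 one of −0.51. Without control replicate 3 these were −0.44 and −0.32, and whether the families differ was not tested.

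Several of these calls depended on single mice, most of all on control replicate 3 of day 7. It had the highest level in its group of all 7 counted most, with 1919 CPM of Defa39, where the next control library had 799 CPM, and 133 CPM of Defa29, where the next had 30.4 CPM. Without it the log2 fold changes were −0.41 for Defa17 (adjusted p = 0.108, edgeR), −0.42 for Defa39 (adjusted p = 0.126), −0.61 for Defa29 (adjusted p = 0.173) and −0.67 for Defa26 (adjusted p = 0.0767), and of the 43 genes 7 stayed called, Defa40 being the only defensin among them. The call of Defa17 was lost in 5 and that of Defa39 in 4 of the 12 fits without 1 mouse, which besides control replicate 3 were those without knockout replicates 1, 2 and 5 or control replicate 4 for Defa17 and knockout replicates 2, 3 and 5 for Defa39. Defa17 was also not called by DESeq2 (adjusted p = 0.0587). Without control replicate 2, which holds stomach transcripts, 15 genes were called, with Defa24 (log2 fold change −0.68, adjusted p = 0.0189), Defa38, Ang4 and Itln1 added on the lower side. The share of all genes called does not stand beside the 7 and the 15, so these counts do not single out the genes under study.

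The effect on Defa29 and Defa40 differed between the days. The log2 difference was −2.50 for Defa29 (SE 0.75, adjusted p = 0.0183, edgeR) and −2.53 for Defa40 (SE 0.68, adjusted p = 0.00853), as both were above 0 at 3 days without being called, at 0.76 and 0.69. Without control replicate 3 of day 7 the log2 difference for Defa29 was −1.35 and not called (adjusted p = 0.0975). That for Defa40, a gene of 1.52 to 26.2 CPM at 7 days, was called with each mouse left out in turn. Control mice also differed between the days in both genes, with higher levels at 7 days. Their log2 fold changes were 2.15 for Defa29 (adjusted p = 0.00842, edgeR) and 1.63 for Defa40 (adjusted p = 0.0178). The part of this shift in the log2 differences was not tested.

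**Figure D5:**
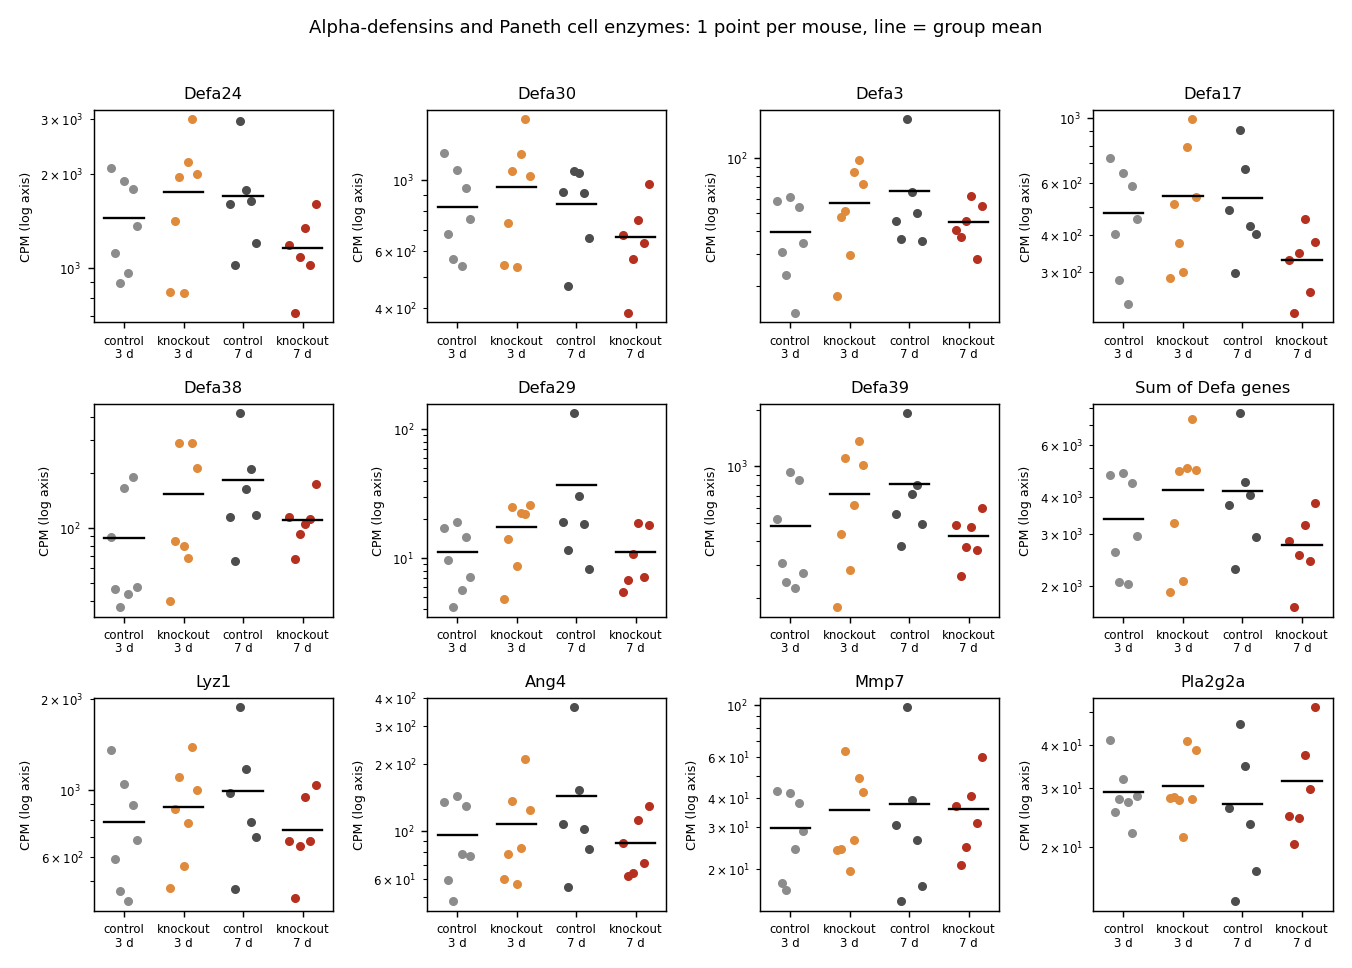
Levels in CPM (y axis, log scale) of 7 Defa genes, the sum of all Defa genes, and Lyz1, Ang4, Mmp7 and Pla2g2a, with 1 point per mouse and a line at the group mean, for control and knockout mice at 3 and 7 days (x axis). At 7 days between 0 and 3 of the 6 knockout points of each Defa gene lie below every control point and the others within the control range, and 1 control mouse, at 7662 CPM in the sum, lies above the others of its group.

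The Paneth cell enzymes were not called at either day. Lyz1, the lysozyme of Paneth cells (ENSMUSG00000069515, chromosome 10, 117287797 to 117292868), was at 442, 678 and 1039 CPM in the lowest, median and highest of the knockout libraries at 7 days and at 473, 881 and 1876 CPM in the control libraries. The log2 fold change of −0.43 had an SE of 0.28 (adjusted p = 0.246, edgeR). Ang4, a microbicidal ribonuclease, was at 62.0, 79.7 and 129 CPM against 55.4, 104 and 364 CPM (log2 fold change −0.72, SE 0.36, adjusted p = 0.126). Without control replicate 3 the values were −0.10 for Lyz1 and −0.14 for Ang4, and without the libraries with stomach transcripts Ang4 was called, at −0.91 (adjusted p = 0.0334). Lyz1 was called without the libraries with pancreatic or stomach transcripts, at −0.67 (adjusted p = 0.0467, edgeR).

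Mmp7, the protease that activates the defensins, was at 20.7, 34.1 and 60.3 CPM in knockout mice and at 14.6, 28.6 and 97.8 CPM in control mice of day 7 (log2 fold change −0.08, SE 0.39, adjusted p = 0.892). The sign of this value is not fixed, as it was 0.53 without control replicate 3. Pla2g2a, a secreted phospholipase that attacks bacterial membranes and is annotated as a polymorphic pseudogene in mice, was at 20.4, 27.2 and 51.7 CPM against 13.9, 24.8 and 46.2 CPM (log2 fold change 0.23, SE 0.27, adjusted p = 0.558). Whether the Pla2g2a transcript gives an active enzyme in these mice was not tested. At 3 days the log2 fold changes of the 4 enzymes lay between 0.16 and 0.34.

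The lectin-like proteins outside the Reg family were not called at 7 days either. Itln1, an intelectin of goblet and Paneth cells, was at 422, 546 and 763 CPM in knockout mice and at 459, 805 and 1433 CPM in control mice (log2 fold change −0.57, SE 0.23, adjusted p = 0.0626, edgeR). All 6 knockout mice were below the control median, and the gene was called without the libraries with stomach transcripts (−0.72, adjusted p = 0.00899). Mptx2, a mucosal pentraxin of Paneth cells, was at 46.9, 76.5 and 147 CPM against 48.9, 101 and 504 CPM (log2 fold change −0.96, SE 0.47, adjusted p = 0.119). At 3 days it had the largest positive value of the 24 genes, a log2 fold change of 1.28, with levels from 4.62 to 250 CPM in knockout mice and from 2.96 to 127 CPM in control mice (SE 0.71, adjusted p = 0.464).

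The remaining 10 genes with a count were under 10 CPM in every group. Of these, Defa40 and Defa26 were called at 7 days, both lower, by −1.85 (SE 0.52, adjusted p = 0.00781, edgeR) and −1.28 (SE 0.41, adjusted p = 0.0197) on the log2 scale. Defa34 and Defa28 were tested at 7 days without a call, and Defa21, Defa22 and Defa35 had at most 4 counts in any library. Retnlb, a goblet cell protein that damages bacterial membranes, had at most 6 counts in any library, too few to detect a change at this depth. Nupr1l, a stress-induced gene, had 0.476 ± 0.270 CPM in knockout and 0.932 ± 0.884 CPM in control mice of day 7 (SD, n = 6 each) and was not called. Reg3d followed the pancreatic transcripts, with 58.8, 13.6 and 12.3 CPM in the 3 libraries of day 3 that hold them, 30.8 CPM in the 1 of day 7, and at most 6.60 CPM in any other library.

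Control mice of the days also differed in these genes. Of 25 genes tested, 12 were higher and 0 lower at 7 days than at 3 days, where 19.7% of all 20646 genes were called higher and 16.3% lower. Reg3b was at 832 ± 868 CPM (SD, n = 6) at 7 days and 186 ± 115 CPM (SD, n = 7) at 3 days (log2 fold change 2.58, SE 0.59, adjusted p = 0.0026, edgeR), Reg3g rose by 2.1 (SE 0.49, adjusted p = 0.00301) and Reg3a by 1.83 (SE 0.53, adjusted p = 0.0131). Among the Defa genes 7 were called. Markers of tissue makeup moved between the same control mice. Of 9 general epithelial genes 8 were higher and 0 lower at 7 days, and of 11 goblet cell genes 9 were higher and 0 lower, with median log2 fold changes of 0.99 and 1.42. All 7 smooth muscle genes and 6 of 9 macrophage genes were lower, with medians of −0.86 and −0.70. Summed smooth muscle genes ranged from 2602 to 4343 CPM at 3 days and from 1283 to 1796 CPM at 7 days, and summed epithelial genes from 1505 to 2700 CPM and from 3311 to 4302 CPM. Their part in the levels of the antimicrobial genes was not tested. The day and a batch that coincides with it cannot be told apart. With library totals in place of TMM factors, 7 genes were higher and 1, Lcn2, lower, and the median of all genes moved from −0.06 to −0.41. Without control replicate 3 of day 7 and without the libraries with pancreatic transcripts, 4 were called each, and without those with pancreatic or stomach transcripts 0 were called, with 8 at an unadjusted p under 0.05 in edgeR, where 26% of all genes were called. DESeq2 called 11 over all control libraries. Apart from the 26%, the share of all genes called in these alternative fits is not given here. In knockout mice, whose change between the days was not tested, the median of Reg3b was 16.9 CPM at 3 days and 12.6 CPM at 7 days.

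Other genes, on a list of 30 drawn up for Paneth cells, were tested beside these. Not all are particular to Paneth cells. Spink4, Spdef and Atoh1 also stand on the goblet cell list used here, and Lyz2 on the macrophage list. Changes in the list are therefore not a readout of Paneth cells alone. At 7 days 29 were tested, 3 were higher and 13 lower in knockout mice, and the median log2 fold change was −0.54, where 19.7% of all genes were higher and 18.8% lower. The 3 higher, named after their values were seen, were Tgfa, an epidermal growth factor receptor ligand, at 21.2 ± 2.11 against 10.5 ± 3.22 CPM (log2 fold change 1.04), Ephb2 (0.31) and Cfd (3.22, at 4.28 CPM or less in the group means). Among those with at least 10 CPM, the 4 largest changes were those of Dnase1, a secreted nuclease, from 65.8 ± 38.3 to 2.94 ± 0.344 CPM (mean ± SD of 6 mice, −4.46 on the log2 scale, edgeR adjusted p = 5.93e-08), of Fzd5, the Wnt receptor that Paneth cells need to mature, from 80.1 ± 6.96 to 21.0 ± 1.42 CPM (−1.90, adjusted p = 1.42e-11), of Fgfr3, a growth factor receptor (−1.69), and of Ghrl, which encodes the hormone ghrelin (−1.17). The highest control level of Ghrl at 7 days, 48.4 CPM, was in replicate 2, the library with stomach transcripts. At 3 days 0 of 29 were called. In the list of 9 tested crypt stem cell genes, which mark the neighbours of Paneth cells, 1 was higher and 6 were lower at 7 days, with Olfm4 at 1.58 ± 0.984 CPM in knockout mice and 236 ± 31.0 CPM in control mice (mean ± SD of 6 mice, −7.17 on the log2 scale, edgeR adjusted p = 1.73e-13). Of 11 goblet cell genes 2 were higher and 2 lower, and of 9 general epithelial genes 1 was higher and 6 were lower, with a median of −0.63. The part of a changed number of epithelial cells in the levels of the antimicrobial genes was not tested.

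The known inducers of Reg3 genes and Retnlb, with their receptors and signalling proteins, were given as a list of 25. Il22, Il17a and Il17f had 0 counts in all libraries, which at 3 counts allows levels of up to 0.473 to 0.806 CPM per library. At 7 days 18 of the list were tested, 5 were higher and 6 lower, with a median of −0.04. Over all genes tested at that day 19.7% were called higher and 18.8% lower. Higher, and named after their values were seen, were the receptor subunits Il17ra (log2 fold change 0.41), Il4ra (0.38) and Il6st (0.28), and Il4 and Il23a, both near 1 CPM in knockout mice (1.96 and 1.91). Among those at 10 CPM or more the 4 largest changes were decreases. Il18, an epithelial cytokine, fell from 226 ± 41.4 to 45.8 ± 9.92 CPM (mean ± SD of 6 mice, −2.27 on the log2 scale, edgeR adjusted p = 1.14e-09), Il33, an alarmin, from 20.9 ± 6.47 to 5.10 ± 1.13 CPM (−2.02, adjusted p = 6e-07), Il13ra1 by 0.78 on the log2 scale and Socs3, a target of STAT3, by 0.60. Of 16 other antimicrobial genes tested, 5 were higher and 5 lower, with a median of −0.09, beside the 19.7% and 18.8% of all genes. The 5 higher, named after their values were seen, were Zg16, at 3351 ± 413 against 2406 ± 548 CPM (log2 fold change 0.49), Slpi, at 127 ± 48.1 against 69.7 ± 28.2 CPM (0.92), Saa3 (1.09), and the neutrophil genes S100a8 and S100a9 (2.43 and 4.14, both under 3 CPM). Pigr, the receptor that carries IgA into the lumen, fell from 4063 ± 752 to 106 ± 53.4 CPM (mean ± SD of 6 mice, −5.23 on the log2 scale, edgeR adjusted p = 2.87e-10). Reg1, another Reg family gene, fell by 2.79 on the log2 scale (adjusted p = 0.0168), and the other two named by size, Wfdc2 and Dmbt1, by 4.67 and 4.10. At 3 days 0 of both lists were called.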

How the data were processed

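Libraries of 3′ ends (QuantSeq FWD) from 26 mice were used, 1 per mouse. The authors trimmed reads with Cutadapt 2.10, aligned them with Subread to GRCm38 and counted exons with featureCounts 2.0.1, sharing reads among overlapping genes. The deposited values are therefore estimated counts, 95.0% of them whole, and were rounded here. Whether counting used strand is not given in the sources used here. The deposited table's 92 spike-in rows held 0 counts and were left out, and a table of CPM was not used.

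Genes at 0 in most samples of either group were left out, after the study's filter. Fits used edgeR 4.0.16 (TMM, quasi-likelihood test, Benjamini-Hochberg adjustment over all genes tested) in R 4.3.3, within each day for genotype, over 4 groups for the difference between days, and within control mice for day. The SE is the log2 fold change over the square root of F. The code was tested on simulated data. DESeq2 1.42.0, other filters and scalings, a replicate block and leaving out each mouse were alternatives. Leaving out libraries with pancreatic or stomach transcripts, and library totals as scaling, were chosen after seeing the data. No pair of libraries was identical (0 pairs). Totals of 3720168 to 6338016 counts allow up to 3 counts for a gene at 0, and intervals of this kind cover counting error only.

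Genes with a mean of at least 10 CPM in a group are named, and at most 4 called genes per list by size of change. In the lists of other Paneth cell genes, inducers and other antimicrobial genes, those called higher were named in addition, some of them under 10 CPM. The genes under study with lower levels are covered together. The genes and lists were chosen with earlier results of these data known. Of 191 listed symbols 172 matched the table. Coding sequences and 3′ ends came from GRCm38 and its GENCODE annotation, and promoters from RefSeq. Protein sequences were not used here. The targeted gene is not reported here.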

Additional observations from a re-analysis of the deposited data

Results flagged for a closer look

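The 80 groups looked at were those of each named gene, and of the summed Defa genes, in each genotype and day. In 12 of them 1 mouse lay further from the others than Dixon's 95% limit. For normally distributed values chance gives about 1 in 20 groups, or 4.0 of 80. The limit was applied to CPM without a log, and in all 12 groups the mouse was the highest, so 4.0 is a rough guide only. The genes are not independent, so mice recur. Control replicate 3 of day 7 was highest for Reg3b (2522 CPM, the next 879 CPM), Mptx2 (504 CPM, next 154), Defa39 (1919 CPM, next 799), Defa29 (133 CPM, next 30.4), Defa3 (164 CPM, next 65.4), Ang4 (364 CPM, next 153) and Mmp7 (97.8 CPM, next 39.4). Among knockout mice of day 7, replicate 4 was highest for Reg3a (65.0 CPM, next 3.13) and replicate 6 for Reg3g (100.1 CPM, next 23.7). Pglyrp1 stood apart in knockout replicate 1 of day 3 (175 CPM, next 34), control replicate 5 of day 3 (328 CPM, next 62.9) and control replicate 2 of day 7 (140.5 CPM, next 31.2), which are libraries with stomach transcripts.

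The genotype effect differed between the days for 6 genes by the test of the difference (edgeR). It was higher at 7 days for Lcn2 (log2 difference 1.83, adjusted p = 0.00204) and Reg4 (1.74, adjusted p = 1.17e-05). It was lower at 7 days for Reg3a (−3.56, adjusted p = 0.0324), Reg3g (−2.97, adjusted p = 0.0262), Defa40 (−2.53, adjusted p = 0.00853) and Defa29 (−2.50, adjusted p = 0.0183).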

How the results depend on the processing

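For 82 log2 fold changes of named genes, 2120 values under alternatives were computed: 1951 kept direction and side of the threshold, 98 lost and 44 gained a call, and 27 reversed, none of them called. At 3 days 0 genes were called under every alternative run (DESeq2 included, with 2 at an unadjusted p under 0.05). At 7 days the 11 calls became 7 with all 26 libraries in 1 fit, 10 with DESeq2, 12 without a filter, 15 without the library with stomach transcripts, 16 without those with pancreatic or stomach transcripts and 7 to 15 with each mouse left out. The 6 calls of the difference between days became 10 without libraries with stomach transcripts and 4 to 10 with each mouse left out. The 12 calls between the days in control mice became 4 without libraries with pancreatic transcripts, 0 without those with pancreatic or stomach transcripts (8 at an unadjusted p under 0.05 by edgeR; DESeq2 was not run on these), and 4 to 16 with each mouse left out. The share of all genes called in each fit does not stand beside these counts, so the shifts do not single out these genes. The cause of these shifts was not tested. The log2 ratio of the summed Defa genes over the alternatives that kept every mouse or left out whole kinds of libraries ranged from 0.054 to 0.735 (3 days) and from −0.781 to −0.54 (7 days).

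Mice with the same replicate number were not treated as pairs in the main fits. Correlations of same-numbered mice ran from −0.514 to 0.553, and 4 of 13 mice correlated best with their own number. Whether the numbers mark pairs is not settled by this, since pancreatic and stomach transcripts of single libraries also enter the correlations. With the replicate number as a block, 11 genes were called at 7 days, 4 for the difference between days (Defa40 and Defa29 lost, adjusted p = 0.0722 and 0.0994) and 4 between control days. The block also reversed Pglyrp1 at 3 days (0.059) and between control days (0.258) and Mmp7 at 7 days (0.176).

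Reversed log2 values at 3 days were those of Itln1 without pancreatic libraries (−0.022), Pglyrp1 without stomach libraries (0.319), and, without either kind, Itln1 (−0.132), Pglyrp1 (0.237), Lyz1 (−0.089), Defa17 (−0.019) and Ang4 (−0.053). For Pla2g2a the difference between days was −0.075 without stomach libraries and −0.027 without either kind, and its control value −0.113 with library totals. For Pglyrp1 between control days the values were 0.353 and 0.335 without these libraries. With each mouse left out, Pglyrp1 ranged from −1.259 to 0.729 and Reg3g from −0.827 to 0.033 at 3 days, Mmp7 from −0.33 to 0.53 and Pla2g2a from −0.01 to 0.486 at 7 days, Pla2g2a from −0.131 to 0.342 and Mmp7 from −0.642 to 0.199 for the difference between days, and Pglyrp1 from −1.221 to 0.772 and Pla2g2a from −0.002 to 0.402 between control days.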
